A study of Mus musculus with 16 samples.

Results

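Proliferins are secreted hormones of the prolactin family, encoded in the mouse by a cluster of near-identical Prl2c genes. Placental trophoblast giant cells make them in quantity, and cultured mouse fibroblasts are a known second source, in which growth factors induce the mRNA. The secreted protein carries mannose 6-phosphate, binds the mannose 6-phosphate/IGF2 receptor Igf2r and acts on blood vessel growth. The rows named Prl2c2, Prl2c4 and Prl2c5 were taken, 3 of the 12100 genes in the table of expression values, and all 3 passed the filter on low values in every fit. They were picked with their high values in null cells given wild-type Arkadia already known, so that contrast is described here without a test.

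The cells were mouse embryo fibroblasts, and poly(A) RNA was sequenced in 16 libraries, 8 named with an A and 8 with a B in the labels and called set A and set B here. The design text speaks of 2 batches of sequencing data without saying which libraries each held, so the sets may be those batches. Set A held fibroblasts lacking the ubiquitin ligase Arkadia (gene Rnf111; Ark-/-, called null) and Ark+/+ fibroblasts (WT), each untreated (0 h) and after 1, 4 and 16 h of TGFβ at 2.5 ng/ml. Set B held null cells infected with a retrovirus for an Arkadia sim mutant (rvCAG-Arksim, called sim) at 0, 1 and 4 h. It also held null cells infected with wild-type Arkadia (rvCAG-ArkWT, called rvWT) at 0, 1 and 4 h and uninfected null cells at 0 and 1 h. The vector came from Moloney murine leukemia virus and its CAG promoter drove Arkadia together with EGFP, so both infected lines still lack the endogenous gene and carry Arkadia under a promoter that is not its own. No null cells with an empty vector were analysed here. Each line and time of a set had 1 library, and the labels do not say that libraries came from separate cultures, so p-values may measure technical spread. The 2 genotypes are 2 lines, and line and genotype cannot be told apart. In bulk RNA, fewer cells of a type and less RNA per cell cannot be told apart either.

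In null cells of set A, Rnf111 itself, the check of the labels, had 0.121 to 0.198 FPKM (fragments per kilobase of transcript, scaled to the mapped reads of a library), against 14.5 to 15.1 FPKM in WT cells. It stood at 56.0 to 62.1 FPKM in sim cells and 102.5 to 125.8 FPKM in rvWT cells, against 0.435 to 0.526 FPKM in null cells of set B. The libraries thus followed their labels. Depth is unknown because only FPKM values were used; the FPKM of a library summed to between 397019 and 481970.

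Most of the sequence of these genes is shared, which bears on every value below. In GRCm38.p6, Prl2c2 lies at chr13:12996120-13005393 and Prl2c5 at chr13:13182703-13191930. The same annotation lists the symbol Prl2c4 as a synonym of Prl2c3, at chr13:12790816-12800093, while the expression table has a row for each. In GENCODE M21, the coding sequences of Prl2c2 and Prl2c3 differed by 3 substitutions in 672 bases, an identity of 99.6%. Those of Prl2c2 and Prl2c5 differed by 20 substitutions and 6 gapped bases, an identity of 96.1%. Of the 793 windows of 50 bases in the Prl2c2 transcript, 83 (10.5%) occurred in no other Prl2c transcript compared, against 622 of 795 (78.2%) for Prl2c5. A read of that length can therefore be placed within Prl2c5 far more often than within Prl2c2. The stretch of coding sequence that holds the gap is shown to make this visible, with bases that differ between Prl2c2 and Prl2c5 in capitals. It covers bases 459 to 578 of the Prl2c2 and Prl2c3 coding sequences and bases 459 to 572 of the Prl2c5 one.
Prl2c2: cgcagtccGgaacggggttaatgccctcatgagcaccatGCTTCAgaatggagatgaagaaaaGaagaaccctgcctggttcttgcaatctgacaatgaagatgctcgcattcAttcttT
Prl2c5: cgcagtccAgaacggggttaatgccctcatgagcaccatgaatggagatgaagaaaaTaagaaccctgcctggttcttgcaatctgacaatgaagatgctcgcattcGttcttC
Prl2c3: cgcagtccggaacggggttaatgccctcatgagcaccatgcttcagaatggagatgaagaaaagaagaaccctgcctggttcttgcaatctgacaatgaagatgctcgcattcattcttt
Prl2c3 was identical to Prl2c2 over these 120 bases, and Prl2c5 lacked 6 bases that the other genes hold.

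**Figure D1:**
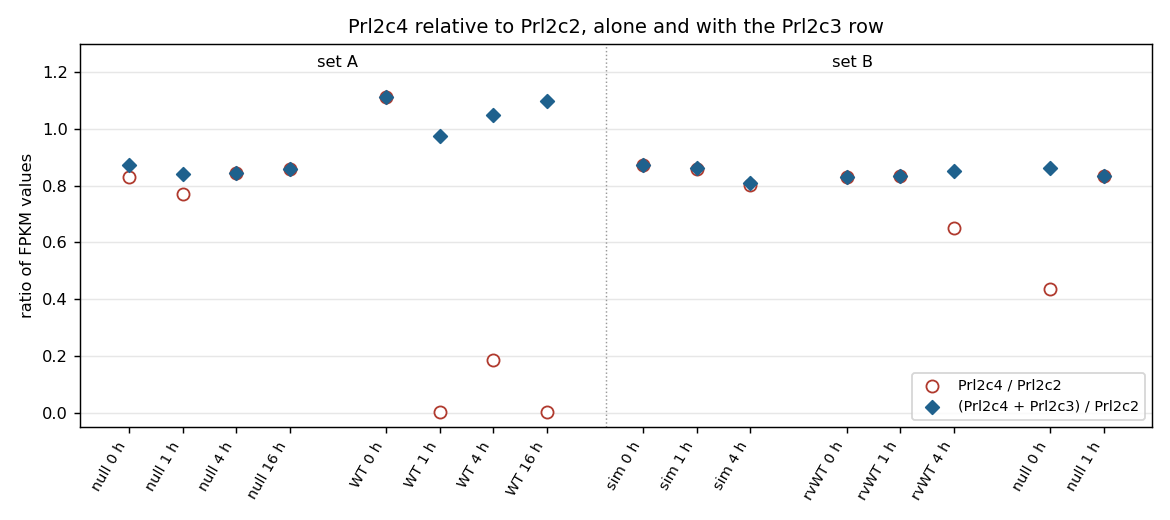
FPKM of Prl2c4 divided by FPKM of Prl2c2 in each of the 16 libraries (open circles), and the same after adding the Prl2c3 row to Prl2c4 (filled diamonds); the vertical axis is a ratio and each pair of points is 1 library. The open circles reach from 0.000407 to 1.11, and the filled diamonds from 0.811 to 1.11.

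The Prl2c4 row did not keep a steady share of the family, and adding the Prl2c3 row steadied it. In the 12 libraries outside WT, Prl2c4 divided by Prl2c2 ranged from 0.437 to 0.873. Adding Prl2c3 to Prl2c4 narrowed that ratio to 0.811 to 0.874 over the same libraries. The null library of set B at 0 h had the lowest ratio, with 6.59 FPKM of Prl2c4 and 6.44 FPKM of Prl2c3, while the null library at 1 h had 12.98 and 0.00946 FPKM. In rvWT cells at 4 h, Prl2c4 had 44.9 FPKM and Prl2c3 had 13.9 FPKM, the highest Prl2c3 value of all libraries. Prl2c4 and Prl2c3 values are for this reason uncertain one by one, and the sum with Prl2c3 is given where it matters. Prl2c5 divided by Prl2c2 ranged from 0.0954 to 0.187 over the 16 libraries.

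Proliferin mRNA was far higher in uninfected null cells of set A than in WT cells at every time. Prl2c2 had 94.8, 106.1, 41.3 and 9.70 FPKM at 0, 1, 4 and 16 h of TGFβ in null cells of set A, against 2.25, 1.72, 1.63 and 0.676 FPKM in WT cells. Prl2c4 had 78.9, 81.9, 34.9 and 8.35 FPKM in those null cells, against 2.50, 0.00106, 0.303 and 0.000275 FPKM in WT cells. Prl2c5 had 12.6, 13.1, 4.51 and 1.29 FPKM in null cells, against 0.238, 0.164, 0.198 and 0.107 FPKM in WT cells. For each of the 3 genes the lowest null library, at 16 h, lay above the highest WT library, at 0 h. How many of all genes part the 2 lines in this way was not counted, and 67.5% of the 10976 tested were called between them. At matched times Prl2c2 was 42.1, 61.8, 25.4 and 14.4 times as high in null as in WT cells, and Prl2c5 was 53.0, 79.9, 22.8 and 12.03 times as high. Prl2c4 with Prl2c3 added was 33.1, 53.2, 20.4 and 11.2 times as high, in place of ratios of Prl2c4 alone that rest on WT values near 0.

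The test of this difference, by limma on log2(FPKM + 1) over the 8 libraries of set A with time as a block, passed for all 3 genes. The filter of at least 1 FPKM used the mean over both lines. Prl2c4 and Prl2c5 had means of 0.702 and 0.177 FPKM in WT cells, against 51.0 and 7.88 FPKM in null cells. Their entry to the test thus rested on the line in which they were high, which limits what their p-values show. WT minus null was -4.22 ± 0.44 (SE) for Prl2c2 (adjusted p = 0.000669), -4.72 ± 0.49 for Prl2c4 (adjusted p = 0.000658) and -2.58 ± 0.45 for Prl2c5 (adjusted p = 0.00443). The scale understates low genes, so that Prl2c5 has the smallest value here although its ratios at 0 and 1 h were above those of Prl2c2. The comparison called 67.5% of all 10976 genes tested at an adjusted p under 0.05, and 30.1% as lower in WT, so the calls alone set the genes little apart. By size they stood higher, with Prl2c4 14th, Prl2c2 23rd and Prl2c5 167th of the 10976 genes. The Prl2c4 row was fitted without Prl2c3. Its WT values of 0.00106 and 0.000275 FPKM at 1 and 16 h stood beside 1.68 and 0.743 FPKM of Prl2c3. The size and place of Prl2c4 are thus uncertain, and with Prl2c3 added its ratios at matched times lay below those of Prl2c2. Set against the 2 null libraries of set B at 0 and 1 h instead, an alternative added after the data were seen, Prl2c4 gave -2.46 with a limma adjusted p of 0.05001, just outside the threshold. Over all alternatives its adjusted p ranged from 0.000642 to 0.05001.

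**Figure D2:**
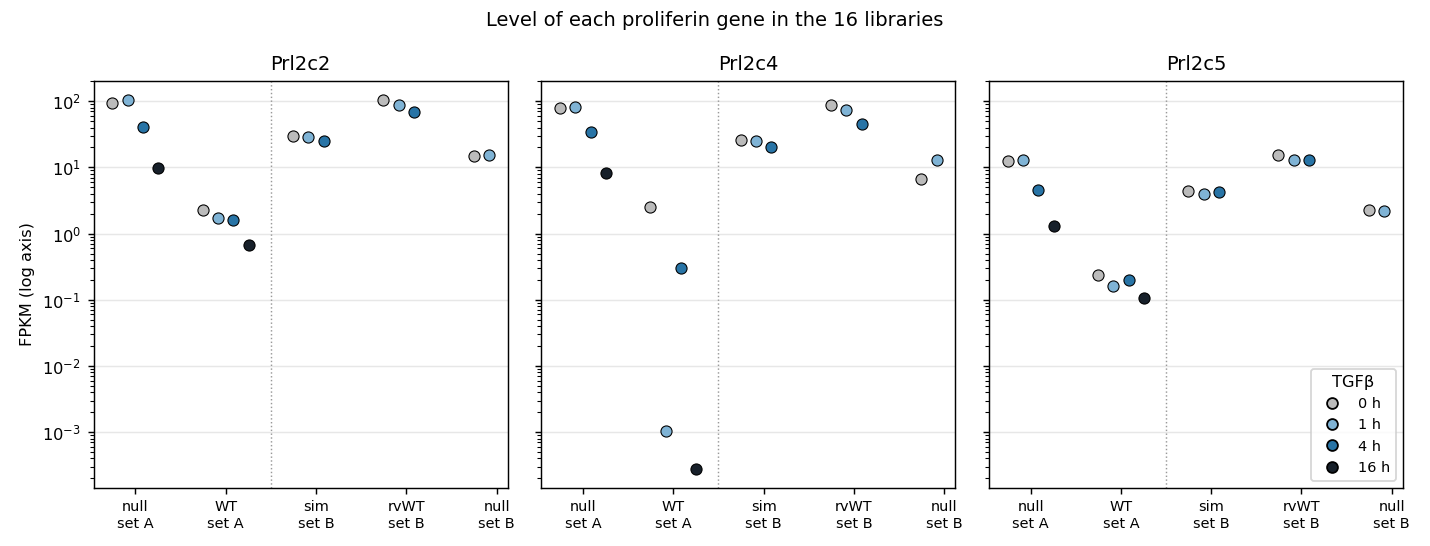
FPKM (log axis) of Prl2c2, Prl2c4 and Prl2c5 in the 16 libraries, grouped by line and set; each point is 1 library and its shade gives the hours of TGFβ. Null cells of set A reach 106.1 FPKM of Prl2c2, WT cells stay at or under 2.25 FPKM, and null cells of set B stand at 15.1 and 15.5 FPKM.

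The level in null cells differed widely between the 2 sets. At 0 and 1 h, Prl2c2 had 94.8 and 106.1 FPKM in null cells of set A, against 15.1 and 15.5 FPKM in null cells of set B. Prl2c5 had 12.6 and 13.1 FPKM in set A, against 2.26 and 2.18 FPKM in set B. The summed FPKM of the 3 genes was 186.3 and 201.2 in set A, against 23.9 and 30.7 in set B, or 7.78 and 6.55 times as high. With Prl2c3 added the ratios were 6.26 and 6.79. On the log2(FPKM + 1) scale the difference between the null libraries of the 2 sets was 2.57 and 2.69 for Prl2c2, 3.40 and 2.57 for Prl2c4, and 2.07 and 2.15 for Prl2c5, at 0 and 1 h. Of 11045 genes, 46 (0.416%) were higher in set A by at least 1 on this scale at both times, and 12 were as far above set B as Prl2c2. There was 1 library at each time in each set, so these values have no test, and the set cannot be told apart from the culture. Null cells of set B still exceeded WT cells of set A 4.79-fold at 0 h and 16.3-fold at 1 h in the summed FPKM, or 6.08-fold and 8.63-fold with Prl2c3 added.

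**Figure D3:**
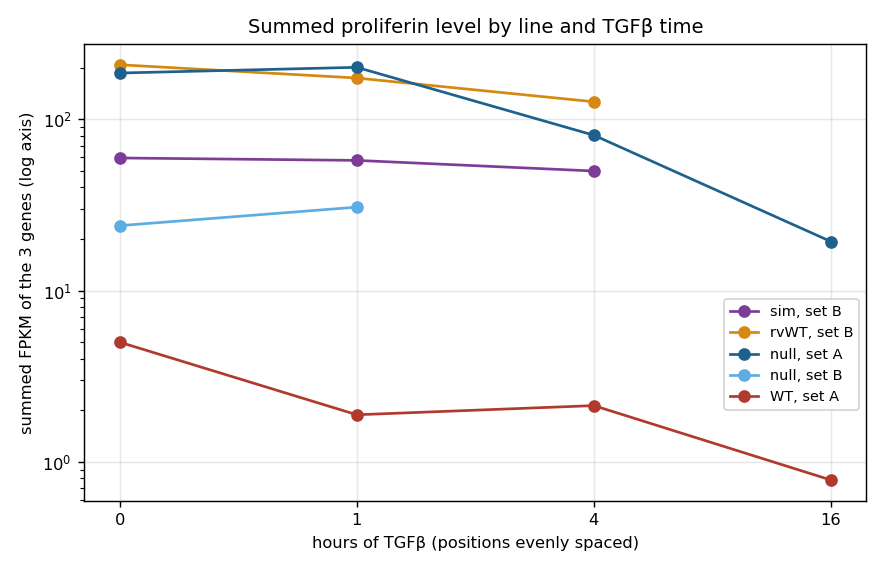
Summed FPKM of Prl2c2, Prl2c4 and Prl2c5 (log axis) against hours of TGFβ, drawn at even spacing, with 1 line for each of the 5 series and 1 library at each point. Null cells of set A fall to 19.3 at 16 h, against 186.3 at 0 h, and the other series start between 4.99 in WT and 208.2 in rvWT.

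Both infected lines had more proliferin mRNA than the null cells of set B. Prl2c2 had 29.4, 28.8 and 25.3 FPKM at 0, 1 and 4 h in sim cells and 105.4, 87.9 and 68.8 FPKM in rvWT cells, against 15.1 and 15.5 FPKM at 0 and 1 h in null cells of set B. Prl2c4 had 25.6, 24.8 and 20.4 FPKM in sim cells and 87.4, 73.4 and 44.9 FPKM in rvWT cells, against 6.59 and 12.98 FPKM in the null cells. Prl2c5 had 4.48, 4.00 and 4.23 FPKM in sim cells and 15.4, 12.95 and 12.91 FPKM in rvWT cells, against 2.26 and 2.18 FPKM in the null cells. For all 3 genes the order was rvWT above sim above null at 0 and 1 h. Their high rvWT values were known when they were picked, and the share of all genes in this order was not counted.

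As fitted differences with time as a block, sim minus null was 0.93 ± 0.10 (SE) for Prl2c2, 1.43 ± 0.28 for Prl2c4 and 0.72 ± 0.07 for Prl2c5. The same values for rvWT minus null were 2.53 ± 0.10, 2.89 ± 0.28 and 2.21 ± 0.07, and for rvWT minus sim 1.60 ± 0.09, 1.45 ± 0.24 and 1.49 ± 0.06. These are the values that chose the genes, or share libraries with those that did, and they carry no p. In the same fits 34.7% of 10958 genes were called between sim and null and 13.9% were higher in sim. Between rvWT and null 38.6% were called and 16.0% were higher in rvWT, and between rvWT and sim 0.493% were called and 0.137% were higher in rvWT. In summed FPKM, sim cells were 2.48-fold above null cells at 0 h and 1.87-fold at 1 h, and rvWT cells 8.70-fold and 5.67-fold. With Prl2c3 added, sim cells were 1.96-fold and 1.88-fold above null cells, and rvWT cells 6.86-fold and 5.67-fold. At 0 h, Prl2c4 alone was 3.89 times as high in sim and 13.3 times as high in rvWT as in null cells. With Prl2c3 added these ratios were 1.97 and 6.71. The fitted Prl2c4 differences from null, made without Prl2c3, are thus uncertain in size. Rnf111 also stood higher in rvWT than in sim cells, and its part in the difference between these lines was not tested.

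The place of the infected lines turned on which null libraries they were set against. Against null cells of set A at 0, 1 and 4 h, sim cells were lower, by -1.40 for Prl2c2, -1.34 for Prl2c4 and -0.96 for Prl2c5. In that setting rvWT minus null was 0.20 ± 0.22 (SE), 0.11 ± 0.18 and 0.53 ± 0.28 for Prl2c2, Prl2c4 and Prl2c5. Both comparisons cross the sets, and they are described without a test. In single libraries at 0 h, the summed FPKM was 59.5 in sim and 208.2 in rvWT cells, against 186.3 in null cells of set A and 23.9 in null cells of set B. Compared with WT cells of set A, whose Rnf111 is endogenous, both infected lines stood far above the WT sum of 4.99 at 0 h. That last comparison crosses the sets as well and was not tested.

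**Figure D4:**
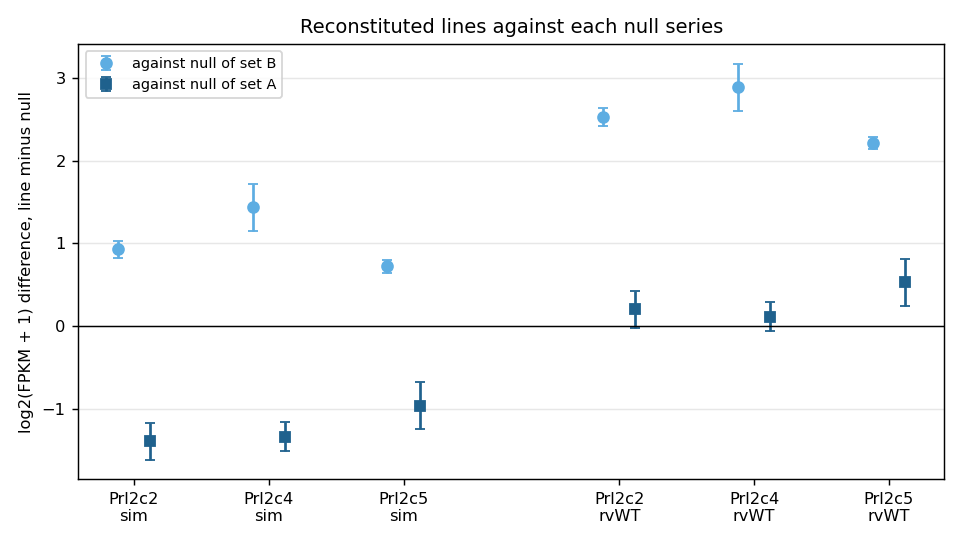
Difference in log2(FPKM + 1) of sim (left) and rvWT (right) from null cells for each gene, with time as a block; bars are SE. Circles use the null cells of set B and squares those of set A: sim lies above 0 against set B and below 0 against set A, and rvWT stands at 0.20, 0.11 and 0.53 against set A.

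Proliferin mRNA was lower at 16 h of TGFβ than at 0 h in both lines that had a 16 h library. No library was left untreated for 1, 4 or 16 h, so TGFβ and time in culture cannot be told apart. In null cells of set A the summed FPKM was 186.3, 201.2, 80.7 and 19.3 at 0, 1, 4 and 16 h, so that 43.3% of the starting value was left at 4 h and 10.4% at 16 h. The 3 genes kept step there, with Prl2c2 at 10.2%, Prl2c4 at 10.6% and Prl2c5 at 10.2% of their 0 h values at 16 h. On the log2(FPKM + 1) scale Prl2c2, Prl2c4 and Prl2c5 differed from 0 h by -1.18, -1.15 and -1.31 at 4 h and by -3.16, -3.10 and -2.58 at 16 h. Of 11045 genes, 0.806% were lower by at least 1 at 4 h and 2.74% at 16 h in that series, and 23 were as low as Prl2c2 at 16 h. In WT cells the summed FPKM was 4.99, 1.88, 2.13 and 0.783, or 42.7% of the 0 h value at 4 h and 15.7% at 16 h. With Prl2c3 added these WT shares were 70.8% and 30.6%. In the same cells Prl2c2 at 16 h was 30.0% and Prl2c5 44.9% of the 0 h value. At 4 h the summed FPKM was 83.9% of the 0 h value in sim cells (49.9 against 59.5). In rvWT cells it was 60.8% (126.6 against 208.2). With Prl2c3 added these shares were 84.2% in sim and 67.5% in rvWT cells. Prl2c5 in rvWT cells was 83.8% of its 0 h value at 4 h, against 35.7% in null cells of set A. All 4 series with a 4 h library were thus lower at 4 h than at 0 h in the sum, by different amounts.

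In a fit over all 16 libraries with the 5 series as a block, Prl2c2 and Prl2c4 passed at 16 h. The 16 h minus 0 h difference was -2.01 ± 0.41 (SE; adjusted p = 0.00845, limma) for Prl2c2 and -2.08 ± 0.54 (adjusted p = 0.0229) for Prl2c4. Prl2c4 was fitted without Prl2c3 here too. In WT cells at 16 h it was 0.0110% of its 0 h value alone and 29.7% with Prl2c3 added, so its value is uncertain. Prl2c5 had -1.30 ± 0.44 and did not pass (adjusted p = 0.0596). This comparison called 19.4% of 11045 genes, 12.5% as lower. At 4 h the differences were -0.56 ± 0.32, -0.82 ± 0.41 and -0.41 ± 0.33 for Prl2c2, Prl2c4 and Prl2c5, and none passed (adjusted p = 0.176, 0.133 and 0.348 by limma), where 39.0% of genes were called and 27.1% were lower. At 1 h they were -0.07 ± 0.29, -0.23 ± 0.38 and -0.09 ± 0.31, none passed (adjusted p = 0.940, 0.808 and 0.924 by limma), and 5.96% of genes were called.

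The 16 h calls rest on 2 series and depend on single libraries. Without the null library at 16 h, Prl2c2 gave -0.98 (limma adjusted p = 0.114) and Prl2c4 -1.08 (limma adjusted p = 0.392). Prl2c4 also missed the threshold without the WT library at 0 h (-1.82, adjusted p = 0.0579) or the null library of set A at 0 h (-1.94, adjusted p = 0.0717). Without the WT library at 16 h, Prl2c2 gave -3.03 and Prl2c5 passed at -2.32 (limma adjusted p = 0.00198). At 4 h, Prl2c2 passed at -0.56 without either 16 h library (limma adjusted p = 0.0279 in both cases), and Prl2c4 at -0.87 without the WT library at 1 h (adjusted p = 0.0376). Over all alternatives the 16 h adjusted p ranged from 0.000188 to 0.151 for Prl2c2, from 0.00146 to 0.455 for Prl2c4 and from 0.00198 to 0.778 for Prl2c5. For the 4 h difference it ranged from 0.0209 to 0.538 for Prl2c2 and from 0.0376 to 0.384 for Prl2c4.

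Whether WT and null cells differed in their response was asked in set A, with 1, 4 and 16 h pooled against 0 h. The difference in response, WT minus null, was 0.89 ± 1.04 (SE) for Prl2c2, -0.28 ± 1.25 for Prl2c4 and 1.18 ± 1.02 for Prl2c5, and no gene of the 3 passed (limma adjusted p = 0.9998 for each). Of 10976 genes 0.0820% were called, and each line had 1 untreated library. In WT cells Prl2c5 began at 0.238 FPKM, with little room to fall on this scale. Its 16 h difference there was -0.16, against -2.58 in null cells. The Prl2c4 value rests on WT values near 0 that trade with Prl2c3. Prl2c2 began at 2.25 FPKM in WT cells, against 94.8 FPKM in null cells, and its value of 0.89 was below its SE. Its 16 h difference was -0.96 in WT cells, against -3.16 in null cells. This fit can therefore not decide whether the response of any of the 3 genes differs.

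Other members of the family had few rows. Prl2c1, a more distant relative at chr13:27849341-27857791 with 91.5% coding identity to Prl2c2, followed the proliferins at a lower level. It had 5.53, 5.67, 2.31 and 0.600 FPKM in null cells of set A, against 0.188, 0.171, 0.204 and 0.0285 FPKM in WT cells. It had 1.01, 1.14 and 0.967 FPKM in sim cells and 4.58, 3.42 and 1.71 FPKM in rvWT cells, against 0.644 and 0.653 FPKM in null cells of set B. WT minus null was -1.77 ± 0.34 (SE; limma adjusted p = 0.00647), and 16 h minus 0 h was -1.14 ± 0.34 (adjusted p = 0.0416). Prl2c1 had a mean of 0.148 FPKM in WT cells, against 3.53 FPKM in null cells of set A. Its entry to the first test thus rested on the null cells, which limits what that p shows. Its 16 h difference was -0.21 in WT cells, with little room to fall, against -2.03 in null cells. Prl2c3 had -0.47 ± 0.67 in WT minus null and did not pass (limma adjusted p = 0.557), the row whose values trade with Prl2c4. Of 25 other genes looked for, the prolactin receptor gene Prlr among them, these 2 had a row.

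The promoters of Prl2c5 and Prl2c3 had the same identity as their coding sequences, 96.0%. The RefSeq promoter table of GRCm38.p6 matched 1 of the 3 genes, Prl2c5; its promoter is shown with that of Prl2c3, as the gene that carries Prl2c4 as a synonym. Each is the 250 bases before the start site that this table uses, which lies a few bases inside the gene span given above. They run on the gene's own strand, at chr13:13182466-13182715 on the plus strand for Prl2c5 and chr13:12800080-12800329 on the minus strand for Prl2c3. The pair had 241 identical positions of 251 aligned (96.0%), 8 substitutions and 2 gapped positions, and capitals mark where they differ.
Prl2c5: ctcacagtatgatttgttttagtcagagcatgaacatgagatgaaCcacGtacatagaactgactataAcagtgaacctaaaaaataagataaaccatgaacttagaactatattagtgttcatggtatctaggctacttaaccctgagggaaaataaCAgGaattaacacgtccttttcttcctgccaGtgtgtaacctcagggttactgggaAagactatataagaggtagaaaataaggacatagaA
Prl2c3: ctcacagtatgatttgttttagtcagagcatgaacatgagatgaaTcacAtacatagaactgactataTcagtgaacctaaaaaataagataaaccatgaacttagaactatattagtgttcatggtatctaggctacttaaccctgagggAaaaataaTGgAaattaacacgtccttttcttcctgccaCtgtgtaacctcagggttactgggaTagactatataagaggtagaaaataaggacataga
AP-1 and the glucocorticoid receptor are known regulators of a mouse proliferin gene, and the AP-1 letters TGANTCA were searched on both strands. Prl2c3 held 1 match, starting 209 bases before that start site, and Prl2c5 held 0, while 6.75% of 32851 promoters of that length held 1 or more. The match covers a position at which the 2 promoters differ. The cyclic AMP element TGACGTCA had 0 matches in both promoters and was held by 1.55% of all promoters. The short SMAD element CAGACA had 0 matches in both and was held by 17.1%, and the SMAD palindrome GTCTAGAC had 0 and was held by 0.167%. The TATA box letters TATAAA had 0 matches in both and were held by 12.4%. Both promoters do hold the related run TATATAAG close to the start site, which those letters miss. The 0 matches therefore do not show that a TATA box is absent. The GC box letters GGGCGG had 0 matches in both and were held by 32.7%. The E-box letters CANNTG had 0 matches in both and were held by 66.2%. A match is a run of letters and not a shown binding site.

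Genes around proliferin action were read from lists. Among 6 genes of the proliferin receptor and lysosomal sorting, 4 were higher and 1 lower in WT than in null cells, where 67.5% of all genes were called. The lower gene was Igf2r, the receptor itself, with 20.2 ± 1.46 FPKM in the set A null cells and 10.4 ± 0.446 FPKM in WT cells (SD over 4 times each). Igf2r gave -0.90 ± 0.05 (SE; limma adjusted p = 0.000133), Nagpa, which uncovers the mannose 6-phosphate tag, 0.75 ± 0.07 (adjusted p = 0.000597), and Igf2, a ligand of the same receptor, 2.12 ± 0.23 (adjusted p = 0.000752). At 4 h of TGFβ, Igf2r was lower by -0.19 and Gnptg, a subunit of the enzyme that builds the tag, by -0.19 (limma adjusted p = 0.0201 and 0.0369), 2 of 6 genes, where 39.0% of all genes were called. At 1 h 0 of 6 passed by limma and at 16 h Gnptg alone (-0.30, adjusted p = 0.0284). With median-ratio scaling 1 gene was called higher and 0 lower at 4 h, and 0 were called at 16 h.

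In the list of 11 genes for AP-1 factors and the glucocorticoid receptor, 5 were higher and 3 lower in WT than in null cells, in a comparison that called 67.5% of all genes. Atf3 (0.80), Batf3 (1.08) and Jund (0.74), all AP-1 family factors, had the smallest adjusted p (0.000426, 0.000689 and 0.00111, limma). Batf3 and Fosb had means of 0.418 and 0.651 FPKM in null cells of set A, against 1.99 and 1.84 FPKM in WT cells. Their entry to the test rested on the WT cells, which limits what their calls show. Of 9 tested over TGFβ time, 4 were higher at 1 h, where 5.96% of all genes were called, and 6 higher and 1 lower at 4 h, where 39.0% were. They were led by Junb, a subunit of AP-1, at 2.52 and 2.12. Nr3c1, the glucocorticoid receptor gene, was lower by -0.54 at 4 h (limma adjusted p = 0.000990) and by -0.70 at 16 h (adjusted p = 0.00164), where Junb was higher by 1.71 (adjusted p = 0.000479). The early TGFβ target list, the check that the cytokine acted, had 9, 12 and 10 of 12 genes higher at 1, 4 and 16 h and 0 lower, where 5.96%, 39.0% and 19.4% of all genes were called, with Pmepa1, a feedback inhibitor of the pathway, at 1.58, 2.31 and 2.12. In WT against null cells 5 of those 12 were higher and 2 lower, with 67.5% of all genes called.

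Cell type markers moved with the proliferins in part. Of 14 fibroblast markers 12 had a row, and 11 of these 12 were lower in WT than in null cells, with a median of -1.61 against 0.07 over all genes. Of all genes 67.5% were called there and 30.1% were lower in WT. Their summed FPKM was 5830 to 5999 in null cells of set A, against 1838 to 2344 in WT cells. It was 7080 to 7531 in sim and 7824 to 8379 in rvWT cells, against 6331 to 6529 in null cells of set B. In WT minus null, S100a4 (-5.06), Col3a1 (-4.98) and Ddr2 (-2.08) had the smallest adjusted p (1.82e-05, 2.49e-05 and 2.66e-05, limma). Lum had a mean of 0.0226 FPKM in WT cells, against 8.59 FPKM in null cells of set A. Its entry to the test rested on the null cells, which limits what its call shows.

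Of 26 trophoblast markers, 7 had a row (Eomes, Gata2, Gata3, Krt7, Krt8, Krt18 and Peg10), and the giant-cell factor Hand1 was not analysed here. All 6 tested were lower in WT than in null cells, where 30.1% of all genes were lower, led by Peg10 (-3.30), Krt7 (-2.51) and Gata3 (-1.01; limma adjusted p = 3.88e-05, 7.19e-05 and 0.000426). Krt8 and Krt18 had means of 0.940 and 0.758 FPKM in WT cells, against 6.88 and 1.56 FPKM in null cells of set A. Their entry to the test rested on the null cells, which limits what the count of 6 shows. The summed FPKM of the 7 markers was 72.2 to 93.1 in null cells of set A, against 11.5 to 20.1 in WT cells. It was 72.5 to 91.0 in sim and 77.7 to 114.2 in rvWT cells, against 84.1 to 100.2 in null cells of set B, so it did not part the 2 null series as the proliferins did. Peg10 was the largest part of that sum in sim and rvWT cells, with means of 54.3 and 75.2 FPKM. In null cells of set B Peg10 had a mean of 33.5 FPKM, beside 31.1 FPKM of Krt7. Of 5 markers tested, 1 (Peg10) was higher and 3 (Gata3, Krt7 and Krt8) were lower both in sim and in rvWT than in null cells of set B, where 34.7% and 38.6% of all genes were called. Krt7, an epithelial keratin, had a mean of 10.95 FPKM in sim and 8.55 FPKM in rvWT cells, against 31.1 FPKM in those null cells. Eomes, a trophoblast stem cell factor, stayed at or under 1.14 FPKM in all libraries. The part of either marker list in the proliferin difference was not tested.

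The genes most like the proliferins over the 16 libraries were named by their correlation with the summed level, as a description without a p. The points share lines, sets and time series, and the WT libraries stand far from the rest. Highest were Ugdh, UDP-glucose dehydrogenase (r = 0.959), Esd, esterase D (0.948), Stk24, a protein kinase (0.945), the imprinted gene Peg10 (0.941) and Galnt18, a glycosyltransferase (0.941). Over the 12 libraries outside WT these values were 0.827, 0.801, 0.802, 0.693 and 0.697. Most opposite were Acot7, an acyl-CoA thioesterase (-0.969), Bdh1, a ketone body enzyme (-0.946), the smooth muscle gene Tagln (-0.946), Tmem120b (-0.937) and Gm6194 (-0.934). Of 10659 genes compared, 66 had r of at least 0.9 and 29 of at most -0.9. Prl2c1 had r = 0.9002 and the highest rank correlation of all (0.982), and it was 0.932 by r outside WT. Prl2c3 had r = 0.150.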

How the data were processed

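The data are stranded poly(A) RNA-seq of 16 fibroblast libraries. The authors deposited 1 table of FPKM values for 12100 genes; per the submitters' processing notes the genome build was mm9 and the tools were Cufflinks 2.2.1, SAMtools, STAR 2.3.0e and CASAVA 1.8.2, and how reads shared by paralogs were assigned is not given in the sources used here. FPKM is scaled to length and library, keeps no depth here, and limits the tests to a log scale. Log2(FPKM + 1) was fitted with limma 3.58.1 (R 4.3.3, trended variance), keeping genes with a mean of at least 1 FPKM, with Benjamini-Hochberg adjustment over all genes and a threshold of 0.05. The fits were tested on simulated data. Line fits used time as a block within a set, and TGFβ fits used the series as a block. Alternatives were other pseudocounts, filters, scalings, variance models and blocks, left-out libraries and the other null series. The genes and gene lists were chosen with earlier results of these data known. Named list genes were the 3 with the smallest adjusted p in WT against null and up to 3 called over time; the correlated genes were the 5 highest and the 5 lowest. Sequences came from RefSeq (GRCm38.p6) and GENCODE M21 (GRCm38), a build other than that of the table, and were compared with Biopython 1.88 in Python 3.11.15. Motifs and lists were fixed together with the tests.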

Additional observations from a re-analysis of the deposited data

How the results depend on the processing

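No paired analysis was possible because the labels number no replicates, so no replicate block could be set; time served as the block. WT minus null kept its direction for all 3 genes under every alternative, and its call in all but the added one, Prl2c4 against the null cells of set B (-2.46). The 16 h difference of Prl2c5 was -1.84 with a pseudocount of 0.1 and -2.36 without the WT series, and passed in both; in set A alone Prl2c2 (-2.06) and Prl2c4 (-2.45) did not pass, nor did Prl2c4 without the null series of set A (-1.07). At 4 h Prl2c2 passed in set B alone (-0.38), without the WT series (-0.65) and without the null series of set A (-0.35). At 1 h Prl2c4 turned positive in set B alone (0.19) and without the WT series (0.16), and the difference in response of Prl2c4 was 0.67 with a pseudocount of 5. The WT-series and null-series alternatives were chosen after seeing the data. The cause of these shifts was not tested.

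With a pseudocount of 0.1, Prl2c5 gave 0.92 for sim minus null, 2.60 for rvWT minus null and 1.67 for rvWT minus sim. With a pseudocount of 5, sim minus null was 0.79 for Prl2c2 and 0.37 for Prl2c5, rvWT minus null was 2.27, 2.47 and 1.39 for Prl2c2, Prl2c4 and Prl2c5, and rvWT minus sim was 1.48 for Prl2c2 and 1.02 for Prl2c5. Quantile normalization gave Prl2c5 0.84 for sim and 2.36 for rvWT against null, and leaving out the time block gave Prl2c2 0.82 and 2.42. Against the null cells of set A, sim minus null was -1.40, -1.34 and -0.96 and rvWT minus null 0.20, 0.11 and 0.53.

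Leaving out each library in turn gave, at 1 h, -0.29 to 0.10 for Prl2c2, -0.51 to 0.15 for Prl2c4 and -0.32 to 0.091 for Prl2c5. At 4 h it gave -0.67 to -0.41 for Prl2c2 and -0.96 to -0.63 for Prl2c4, and at 16 h -3.03 to -0.98, -3.08 to -1.08 and -2.32 to -0.28 for the 3 genes. The Prl2c4 difference in response ranged from -1.07 to 0.51. Sim minus null ranged from 0.92 to 1.95 for Prl2c4, lowest without the null library of set B at 0 h, and rvWT minus null from 2.39 to 2.62 for Prl2c2 and 2.37 to 3.40 for Prl2c4. For Prl2c2, rvWT minus sim ranged from 1.49 to 1.69. Without a 0 h library of set A the difference in response could not be fitted, and a minimum mean of 5 FPKM dropped Prl2c5 from the fits of set A.

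Of the counts of genes called, 9 moved by over 1.5 times and 72 did not under settings other than leaving out single libraries. The 658 at 1 h, 4307 at 4 h and 2139 at 16 h became 12, 16 and 245 in set A alone, and 2139 became 546 without the null series of set A. Without the time block 3807 for sim and 4230 for rvWT against null became 1777 and 2200. The 9 genes of the difference in response became 4 with a pseudocount of 0.1 and 3 with a minimum of 5 FPKM, and the 54 of rvWT against sim became 93 with robust variances. Leaving out single libraries moved 29 counts that far and 57 not. The counts then ranged from 400 to 815 at 1 h, 2658 to 4779 at 4 h, 640 to 3026 at 16 h, 1581 to 3854 for sim and 1946 to 4249 for rvWT against null, 1 to 10 for rvWT against sim and 2 to 19 for the difference in response. For WT against null they ranged from 6266 to 7343, and none moved that far. Adding Prl2c3 to the summed FPKM moved no line's mean by more than its SD over times.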

Other observations

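Of 15 growth factor response genes, 6 were higher and 3 lower in WT than in null cells of set A, where 67.5% of all genes were called. These were led by the cyclin gene Ccnd1 (-3.28), the ETS factor Etv4 (1.47) and the signalling inhibitor Spry2 (-0.95; limma adjusted p = 2.63e-05, 0.000335 and 0.000625). Over TGFβ time 2, 9 and 4 of the 15 were higher and 1, 1 and 2 lower at 1, 4 and 16 h, where 5.96%, 39.0% and 19.4% of all genes were called. Spry2 was lower by -1.16 at 1 h and by -1.07 at 16 h, and Hmga2, a chromatin protein, was higher by 0.97 at 4 h.

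Of 12 angiogenic growth factors 11 had a row, and 6 of 10 tested were lower and 1 higher in WT than in null cells of set A, where 67.5% of all genes were called and 30.1% were lower. Fgf7, an epithelial mitogen (-2.91), Adm, a vasodilator peptide (-1.37) and Angptl2 (-1.12) had adjusted p of 0.000155, 0.000146 and 8.13e-05 by limma. Fgf7 and Angpt1 had means of 0.256 and 0.582 FPKM in WT cells, against 8.88 and 1.85 FPKM in null cells of set A. Their entry to the test rested on the null cells, which limits what their calls show. Over TGFβ time 2, 5 and 4 of 11 were higher and 0, 3 and 3 lower at 1, 4 and 16 h, with the same shares of all genes called as above. Vegfa, the main vascular growth factor, was higher by 1.43 at 1 h and 1.39 at 4 h (limma adjusted p = 0.00591 and 0.00359).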
